A study of Homo sapiens with 43 samples.

Results

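The genes described here are 9 regulators and structural products of the epithelial-mesenchymal transition (EMT): TWIST1, TWIST2, SNAI1, SNAI2, ZEB1, ZEB2, vimentin (VIM), N-cadherin (CDH2) and cadherin 11 (CDH11). They were chosen by symbol from tables that hold 18085 genes for H2087 and 25369 for HCC1954, and all 9 have a row in each table. H2087 is labelled an established lung cancer line and HCC1954 an established breast cancer line. For each line the series holds parental cells and latency-competent cell derivatives (LCC), which the labels describe as isolated from a BLI-negative organ (for HCC1954, of a mouse). Total RNA was sequenced after 48 h of subconfluent growth, either in MRM, a medium rich in mitogens, or in MLM, a medium low in mitogens. Each medium of H2087 is covered by 2 libraries of parental cells and 6 of LCC cells (derivatives LCC1 to LCC6), and each medium of HCC1954 by 3 of parental cells and 4 of LCC cells (2 of LCC1 and 2 of LCC2). An H2087 LCC group is thus 6 derivatives sequenced once each, while an HCC1954 LCC group is 2 derivatives sequenced 2 times each. Nothing in the labels says that libraries of a group came from separate cultures, so p-values measure the spread between these libraries.

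TWIST1 and TWIST2 are basic helix-loop-helix factors, SNAI1 (Snail) and SNAI2 (Slug) are zinc finger repressors, and ZEB1 and ZEB2 are zinc finger homeobox repressors. In the textbook account of EMT, the SNAI and ZEB proteins bind E-box sequences in promoters of epithelial genes such as CDH1 (E-cadherin), cells lose epithelial junctions, and levels of vimentin, a type III intermediate filament protein, and of N-cadherin and cadherin 11, adhesion proteins of mesenchymal cells, rise. EMT is usually partial in carcinoma cells, and cells can carry epithelial and mesenchymal products at the same time.

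The E-box CACCTG, which reads CAGGTG from the opposite strand, was searched on both strands in the RefSeq promoters of these genes, from 250 bases before to 50 after a transcription start, because it is the site that SNAI and ZEB proteins recognise. The reference table (GRCh38.p14) has windows for TWIST2, ZEB1, ZEB2, VIM and CDH2. TWIST1, SNAI1, SNAI2 and CDH11 have no entry. The 3 windows below are shown because ZEB1 and VIM were lowest in the H2087 derivative LCC4 described further on, and CDH2 differs between the HCC1954 groups. Capitals mark E-boxes.
ZEB1, chr10:31318966-31319265, + strand: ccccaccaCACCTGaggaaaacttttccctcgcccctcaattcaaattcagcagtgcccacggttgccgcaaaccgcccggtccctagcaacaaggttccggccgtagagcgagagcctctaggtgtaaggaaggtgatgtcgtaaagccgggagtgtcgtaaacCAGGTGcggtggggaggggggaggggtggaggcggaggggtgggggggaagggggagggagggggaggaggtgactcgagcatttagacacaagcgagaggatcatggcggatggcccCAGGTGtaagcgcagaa
VIM, chr10:17227991-17228290, + strand: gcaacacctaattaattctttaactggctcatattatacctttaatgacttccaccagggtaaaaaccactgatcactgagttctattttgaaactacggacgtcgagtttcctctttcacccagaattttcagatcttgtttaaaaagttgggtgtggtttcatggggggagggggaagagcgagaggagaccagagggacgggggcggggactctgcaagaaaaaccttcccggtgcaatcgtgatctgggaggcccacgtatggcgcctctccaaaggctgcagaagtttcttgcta
CDH2, chr18:28177081-28177380, - strand: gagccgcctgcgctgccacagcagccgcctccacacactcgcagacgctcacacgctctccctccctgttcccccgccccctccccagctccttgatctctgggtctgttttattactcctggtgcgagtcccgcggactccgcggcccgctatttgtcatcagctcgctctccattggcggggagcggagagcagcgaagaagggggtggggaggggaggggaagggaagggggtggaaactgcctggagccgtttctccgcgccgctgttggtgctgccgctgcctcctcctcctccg
This ZEB1 window holds 3 matches, another of the 7 ZEB1 windows holds 1, and the other ZEB1 windows hold 0. The windows of TWIST2, ZEB2, VIM and CDH2 hold 0. Among 35116 promoters in the table, 20.6% hold at least 1 match and 3.49% hold at least 2. A match describes the letters and is not evidence of binding.

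The lines expressed different sets of these genes. A gene with a mean under 10 normalized counts over the libraries of a line was taken as not measured. By that rule 6 of 9 genes were measured in H2087 and 7 of 9 in HCC1954. TWIST1 had no read in any of the 16 H2087 libraries. With 537457074 reads in all, a count of 0 allows up to 3 reads, or 0.00558 CPM (reads of a gene scaled to a common library total), for counting error only. ZEB2 and CDH2 each had 1 read in 1 H2087 library. In HCC1954 the genes below the limit were ZEB1, with a mean of 6.26, and ZEB2, with a mean of 6.25. ZEB1 had 1 to 14 reads in each HCC1954 library, and the parental and LCC values overlapped in both media. ZEB2 had 90 reads over the 14 HCC1954 libraries, 80 of them in LCC libraries, and is given no test. The factor genes of the lines were therefore ZEB1 with SNAI2, SNAI1 and TWIST2 in H2087, and TWIST1 with SNAI2, SNAI1 and TWIST2 in the HCC1954 derivatives.

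The shallowest and deepest libraries held 12131848 and 55653300 reads for H2087, and 24852118 and 44705518 reads for HCC1954. In H2087 the MLM libraries were the deeper ones (44649263 to 55653300 reads, against 12131848 to 20847987 in MRM). In HCC1954 the MRM libraries were the deeper ones (28799407 to 44705518 reads, against 24852118 to 28119596 in MLM). Depth and medium cannot be told apart in either line. ERBB2, the amplified receptor gene of HCC1954, stood between 119992 and 307479 normalized counts in HCC1954 and between 246 and 4611 in H2087. NKX2-1, a lung lineage factor, stood between 2319 and 6892 in H2087 and between 239 and 750 in HCC1954. Both come from marker lists that were mixed. GRB7 and STARD3 also stood higher in HCC1954, and SFTPB, SFTA3 and FOXA2 in H2087. KRT7 of the lung list had group means of 54304 to 109355 in HCC1954 and 10170 to 27770 in H2087. KRT19 of the breast list had group means of 7610 to 16622 in H2087 and 992 to 2160 in HCC1954. The lines were scaled separately, and this contrast was not tested. All values below are normalized counts as deposited, in which both media of a line share 1 scaling. Fold changes are differences of log2(value + 1) ± standard error, tested with limma over every gene whose mean reached 10. Genes whose adjusted p (Benjamini-Hochberg) fell under 0.05 are termed called.

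HCC1954 derivatives carried TWIST1, SNAI1 and CDH2 at higher levels than parental cells in both media, and CDH11 at lower levels. Of the 7 genes tested in MLM, 3 were called higher and 1 lower, against 36.5% of all genes called in that comparison. In MRM the count was again 3 higher and 1 lower of 7, against 38.4% of all genes. TWIST2, SNAI2 and VIM did not pass the test in either medium with the derivatives in 1 group. The median log2 difference of the 7 genes was -0.13 in MLM and 0.77 in MRM, beside medians of -0.0021 and -0.0042 over all genes tested. TWIST1 and CDH2 reached the mean of 10 only through the LCC libraries, and CDH11 only through the parental ones, so a gene that passed in this way had to differ, and these counts and medians are descriptions that support nothing. In bulk RNA, a change in the share of cells that express a gene cannot be told apart from a change in the RNA per cell.

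TWIST1, which is active in mesoderm and neural crest in the embryo, was nearly silent in the parental cells. In MLM the parental libraries held 1.30, 0 and 1.30 normalized counts, the LCC1 libraries 311.9 and 339, and the LCC2 libraries 262 and 269. All 4 LCC libraries lay far above all 3 parental libraries, and LCC1 lay above LCC2. These values are 1023 reads in LCC against 2 reads in parental cells, a ratio of 347 (exact 95% counting interval 95.7 to 2867). The fitted difference was 7.40 ± 0.34 (adjusted p = 4.87e-05). In MRM the parental libraries held 2.40, 0.957 and 4.14, LCC1 186 and 246, and LCC2 137 and 129. The order of the groups was that of MLM, with 844 reads in LCC against 10 in parental cells, a ratio of 64.8 (35.1 to 136). The fitted difference in MRM was 5.71 ± 0.38 (adjusted p = 9.56e-05). Over the alternative settings the fitted differences ran from 4.81 to 8.45 in MLM and from 3.85 to 6.05 in MRM. TWIST1 was tested only because it is high in LCC, so these differences are given as values.

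The second factor that rose was SNAI1, the Snail repressor, whose parental level was low but not 0. In MLM parental cells stood at 14.2, 25.5 and 53.5, LCC1 at 258 and 309, and LCC2 at 70.9 and 89.1. The groups did not overlap, but the highest parental library came near LCC2. The difference was 2.43 ± 0.65 (adjusted p = 0.0229). The adjusted p rose above 0.05 without parental library 1 (0.089), without parental library 2 (0.074), without the first LCC1 library (0.0519), and with LCC2 as the only derivative (0.0645). In MRM parental cells stood at 44.7, 68.0 and 54.5, LCC1 at 394.5 and 132, and LCC2 at 162 and 175. Again no LCC library was as low as a parental one. The difference was 1.82 ± 0.37 (adjusted p = 0.00787), and SNAI1 was called for each derivative alone (LCC1 2.04, adjusted p = 0.0172, and LCC2 1.60, adjusted p = 6.19e-09), where 47.9% and 74.7% of all genes were called.

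CDH2, which encodes N-cadherin, was barely read in parental cells and remained low in LCC. In MLM the parental libraries held 2.59, 0 and 5.22, LCC1 23.3 and 27.2, and LCC2 9.15 and 11.1. In MRM the parental libraries held 0.799, 0 and 2.07, LCC1 42.1 and 90.6, and LCC2 14.8 and 10.8. In both media LCC1 was highest, LCC2 next and parental cells lowest, without overlap. Summed reads gave a ratio of 6.78 (95% counting interval 2.94 to 19.2, 60 reads against 6) in MLM and of 36.5 (14 to 135, 190 reads against 4) in MRM. Since CDH2 was tested only because it is high in LCC (its means were 2.60 and 0.956 in parental cells and 17.7 and 39.6 in LCC), its fitted differences are given as values: 2.60 ± 0.69 (adjusted p = 0.0231) and 4.05 ± 0.76 (adjusted p = 0.00546). In MLM the call was lost without parental library 1 (adjusted p = 0.0569), parental library 2 (0.0563), either LCC1 library (0.0554 and 0.053) or with LCC2 alone (0.0986). ZEB2, which is below the measuring limit, stood at 13.5 and 14.8 in the LCC1 libraries in MLM and at 4.57 and 4.05 in LCC2, beside 0, 0 and 5.22 in parental cells.

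CDH11, the cadherin of osteoblasts and mesenchyme, went the other way. In MLM parental cells held 214, 153 and 266, LCC1 7.37 and 7.42, and LCC2 0 and 1.01. The parental libraries had 495 reads and the LCC libraries 13, a ratio of 56.2 (95% counting interval 32.5 to 106), and the difference was -5.90 ± 0.79 (adjusted p = 0.00146). In MRM parental cells held 119.8, 110.1 and 106, LCC1 6.16 and 7.81, and LCC2 7.85 and 11.5. The ratio of parental to LCC was 13.0 (9.45 to 18.3) and the difference -3.63 ± 0.24 (adjusted p = 8.98e-05). CDH11 was tested only because it is high in parental cells, so its differences are given as values. Over the alternative settings they ran from -7.19 to -4.00 in MLM and from -3.83 to -2.74 in MRM. So the 2 cadherins of mesenchymal cells changed in opposite directions in the same libraries.

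The remaining genes did not separate the groups in the same way in both media. VIM in MLM stood at 708, 751 and 1120 in parental cells, 192 and 141 in LCC1, and 671 and 604 in LCC2. Every LCC library was below every parental one, with LCC1 far below LCC2, and the difference of -1.38 ± 0.58 did not pass the test (adjusted p = 0.101). LCC1 alone was called lower than parental cells in MLM, with a VIM difference of -2.35 (adjusted p = 0.0011), while LCC2 alone gave -0.40 (adjusted p = 0.173). These single-derivative fits in MLM called 48.9% of all genes for LCC1 and 47.1% for LCC2. In MRM VIM stood at 256, 227 and 250.4 in parental cells, 263 and 2550 in LCC1, and 181 and 178 in LCC2. The LCC1 library at 2550 is the second one, labelled LCC1 2, and it sets the sign: the difference was 0.65 ± 0.90 with it (adjusted p = 0.603) and -0.26 without it (adjusted p = 0.263). LCC2 alone was called lower in MRM, with a VIM difference of -0.44 (adjusted p = 2.28e-04), in a fit that called 74.7% of all genes.

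SNAI2, the Slug repressor and a regulator of basal mammary cells, showed an opposite sign for the derivatives in MLM. Parental cells held 1077, 1129 and 1137, LCC1 788 and 757, and LCC2 1375 and 1313. Set against parental cells, LCC1 alone was called lower (-0.53, adjusted p = 0.00348) and LCC2 alone higher (0.27, adjusted p = 0.0305), and together they gave -0.13 ± 0.24 (adjusted p = 0.703). In MRM parental cells held 475, 457 and 457, LCC1 821 and 1554, and LCC2 539 and 562. There every LCC library lay above every parental one, and the difference of 0.77 ± 0.35 did not pass the test (adjusted p = 0.124). Each derivative alone was called higher in MRM (LCC1 1.28, adjusted p = 0.011, and LCC2 0.25, adjusted p = 0.00222), in fits that called 47.9% of all genes for LCC1 and 74.7% for LCC2. DESeq2 called SNAI2 in MRM with both derivatives (0.91, adjusted p = 0.0384). TWIST2 stayed between 27.6 and 71.2 in all HCC1954 libraries, with differences of -0.46 ± 0.20 in MLM (adjusted p = 0.116) and 0.52 ± 0.20 in MRM (adjusted p = 0.0803). TWIST2 was called higher in MRM for LCC2 alone (0.50, adjusted p = 0.0323), in the fit that called 74.7% of all genes, and not for LCC1 alone (0.55, adjusted p = 0.126).

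**Figure D1:**
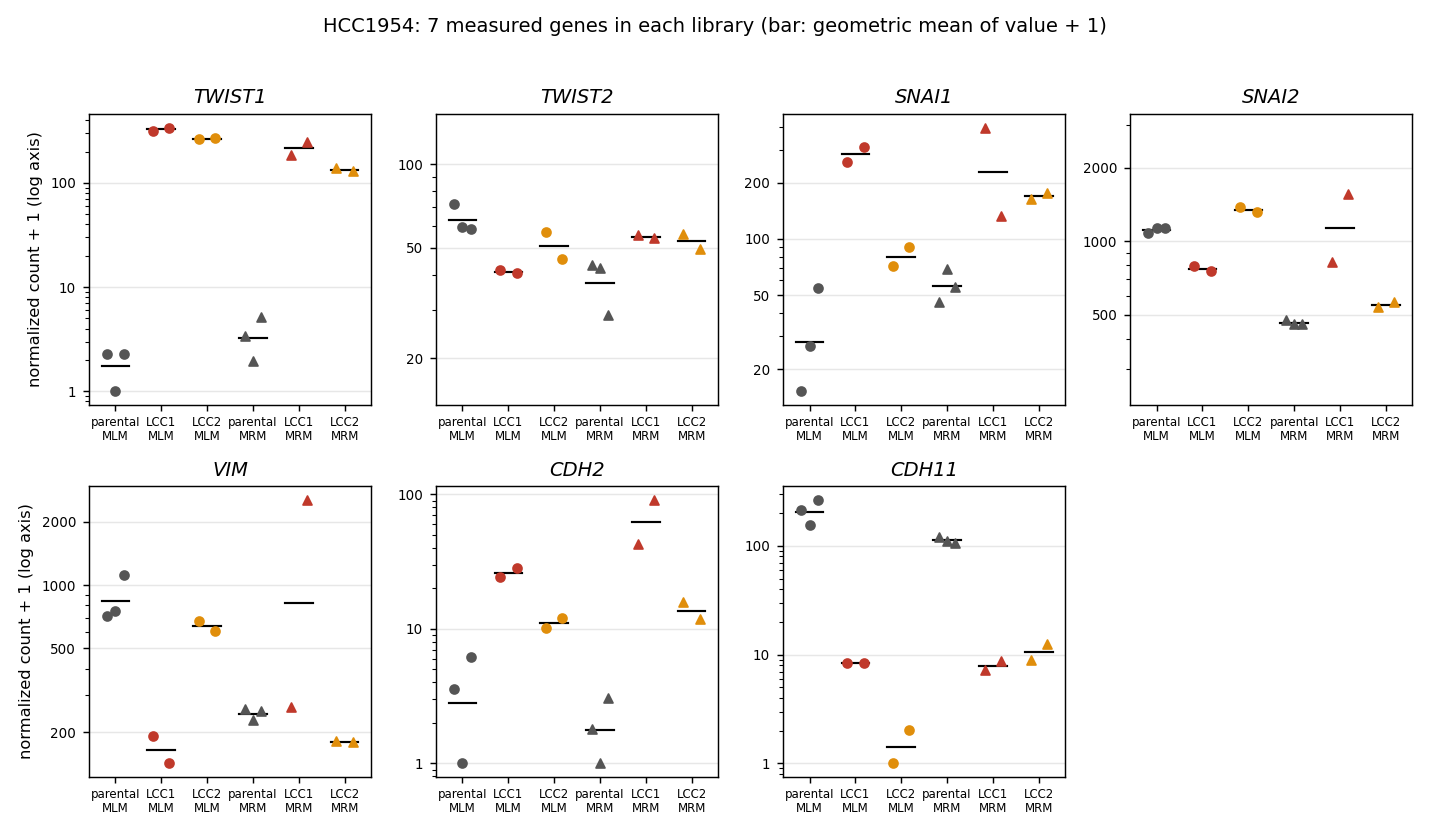
Normalized count plus 1 (log axis) of the 7 measured genes in each HCC1954 library, as circles in MLM and triangles in MRM, grey for parental cells, red for LCC1 and orange for LCC2, with a bar at the geometric mean of each group. TWIST1, SNAI1 and CDH2 lie higher and CDH11 lower in LCC libraries of both media, and in MRM 1 LCC1 library stands at 2550 for VIM, above the other libraries.

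LCC1 and LCC2 were then compared with each other, with the parental libraries of the medium in the same fit. In MLM, 2 of 7 genes were called higher in LCC2 and 2 lower, against 39.7% of all genes called. SNAI2 was 0.80 ± 0.07 higher in LCC2 (adjusted p = 6.14e-04) and VIM 1.95 ± 0.24 higher (adjusted p = 0.0016), while SNAI1 was lower in LCC2 (-1.82 ± 0.53, adjusted p = 0.0333). CDH11 was lower in LCC2 too, with 1 read in LCC2 against 12 in LCC1 (ratio of LCC1 to LCC2 13.8, 95% counting interval 2.04 to 589, adjusted p = 0.00422), and it fell out of the calls with a pseudocount of 10 (adjusted p = 0.0567). The CDH11 means, 7.40 in LCC1 and 0.506 in LCC2, were both under the limit of 10. It was tested here only because the parental libraries, which are outside this contrast, raised its mean, so its call supports nothing. LCC1 in MLM was thus the derivative with more SNAI1 RNA and less SNAI2 and VIM RNA. In MRM, 0 of 7 were called higher in LCC2 and 2 lower, against 35% of all genes. The called genes were SNAI2 (-1.03 ± 0.26, adjusted p = 0.0243) and CDH2 (-2.2 ± 0.61, adjusted p = 0.0329). SNAI2 had opposite signs between the derivatives in the 2 media. LCC1 2 had the higher SNAI2 and CDH2 values of the LCC1 libraries in MRM (1554 and 90.6, beside 821 and 42.1), and without it 4 of the 7 genes and 58.9% of all genes were called. Leaving out 1 library at a time lost the SNAI1 call in MLM without parental library 2 or any of the 4 LCC libraries (adjusted p up to 0.157). In MRM it lost SNAI2 without any parental library or either LCC2 library, and CDH2 without parental library 1 or either LCC2 library (adjusted p up to 0.122 and 0.162).

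In H2087 the derivatives differed from parental cells in 1 of these genes in 1 medium. In MLM none of the 6 genes tested was called by limma, against 13.7% of all genes. CDH11 had an unadjusted p under 0.05, edgeR called 0 of the 6, and DESeq2 called 1. In MRM 1 gene was called higher and 0 lower of 6, against 14.6% of all genes, and that gene was SNAI2. The medians of the 6 differences were 0.099 in MLM and 0.15 in MRM, beside 0.005 and -0.0023 over all genes.

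SNAI2 in MRM stood at 112 and 128 in parental cells, and at 373, 1096, 559, 287, 796 and 551 in LCC1 to LCC6. All 6 derivatives lay above both parental libraries, and the lowest of them, LCC4, was still more than 100 normalized counts above. The difference was 2.2 ± 0.44 (95% interval 1.19 to 3.21, adjusted p = 0.0142), a fold of 4.60. With only 2 parental libraries, the call was lost when either was left out (adjusted p = 0.157 and 0.115), at differences of 2.11 and 2.29. In MLM SNAI2 stood at 901 and 849 in parental cells and at 888, 2512, 1018, 656, 1512 and 1322 in LCC1 to LCC6. There the groups overlapped, and the difference was 0.45 ± 0.43 (adjusted p = 0.53). LCC2 was the highest and LCC4 the lowest derivative in both media.

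CDH11 in MLM stood at 2822 and 3015 in parental cells and at 7688, 2732, 4990, 5404, 6348 and 8436 in LCC1 to LCC6. In 5 of the 6 derivatives it was above both parental libraries, and LCC2 was just below them. The difference of 0.94 ± 0.37 did not pass the test (adjusted p = 0.136). In MRM CDH11 ranged from 8333 to 15888 in LCC, around the parental values of 12033 and 11379 (0.13 ± 0.21, adjusted p = 0.706). CDH11 was thus abundant in every H2087 library and nearly absent from the HCC1954 derivatives.

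VIM RNA was very abundant in H2087. Parental cells held 80500 and 83165 in MLM and 49561 and 55338 in MRM, and the LCC libraries ranged from 61247 to 108510 in MLM and from 29596 to 85419 in MRM. The group means of VIM were 1830 to 2993 CPM in H2087 and 8.18 to 27.9 CPM in HCC1954, counted over the genes that the tables share, a contrast across separately scaled tables that was not tested. VIM differences between LCC and parental cells were 0.04 ± 0.19 in MLM (adjusted p = 0.906) and 0.29 ± 0.36 in MRM (adjusted p = 0.617). ZEB1 ranged from 1031 to 1945 over the LCC libraries in MLM and from 518 to 1727 in MRM, around parental values of 1909 and 1910 in MLM and of 1259 and 1153 in MRM. Its differences were -0.23 ± 0.22 (adjusted p = 0.521) and -0.05 ± 0.38 (adjusted p = 0.946). SNAI1 ranged from 29.0 to 158 over all H2087 libraries and TWIST2 from 50.8 to 119.8, with LCC differences between -0.48 and 0.16 that did not pass the test in either medium.

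**Figure D2:**
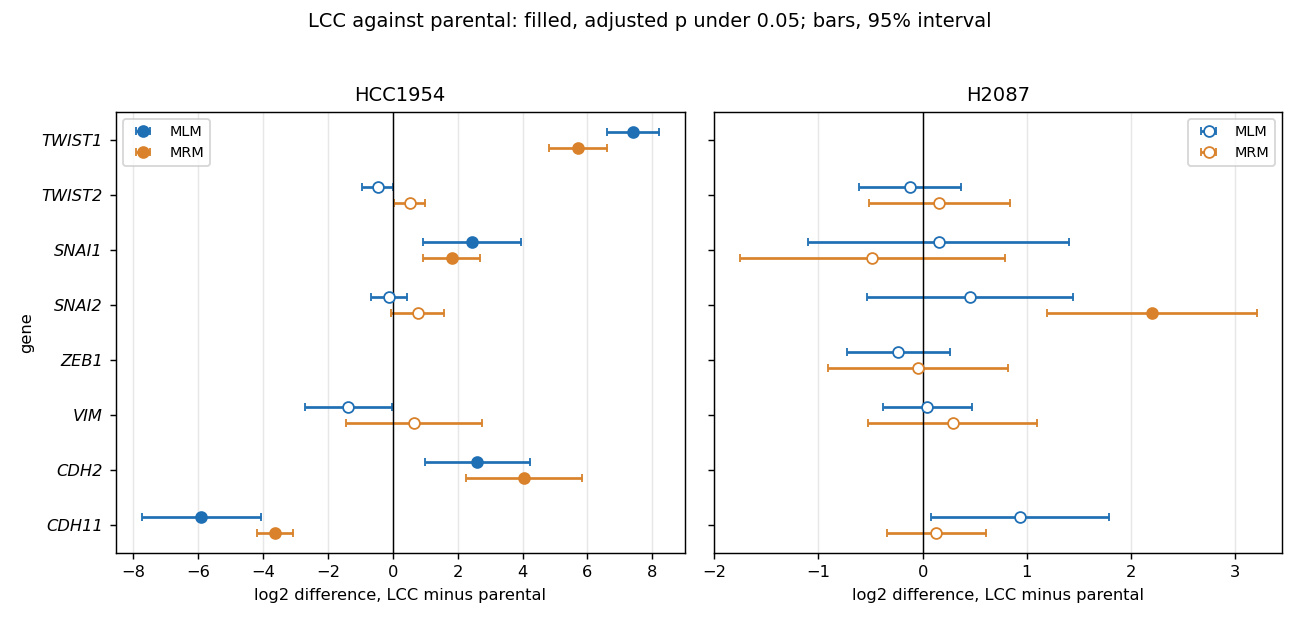
Log2 difference of LCC minus parental cells for each gene tested, HCC1954 on the left and H2087 on the right, blue for MLM and orange for MRM, with bars for the 95% interval of limma and filled points for an adjusted p under 0.05. In HCC1954 TWIST1, SNAI1, CDH2 and CDH11 are filled in both media, and in H2087 SNAI2 in MRM is the only filled point.

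**Figure D3:**
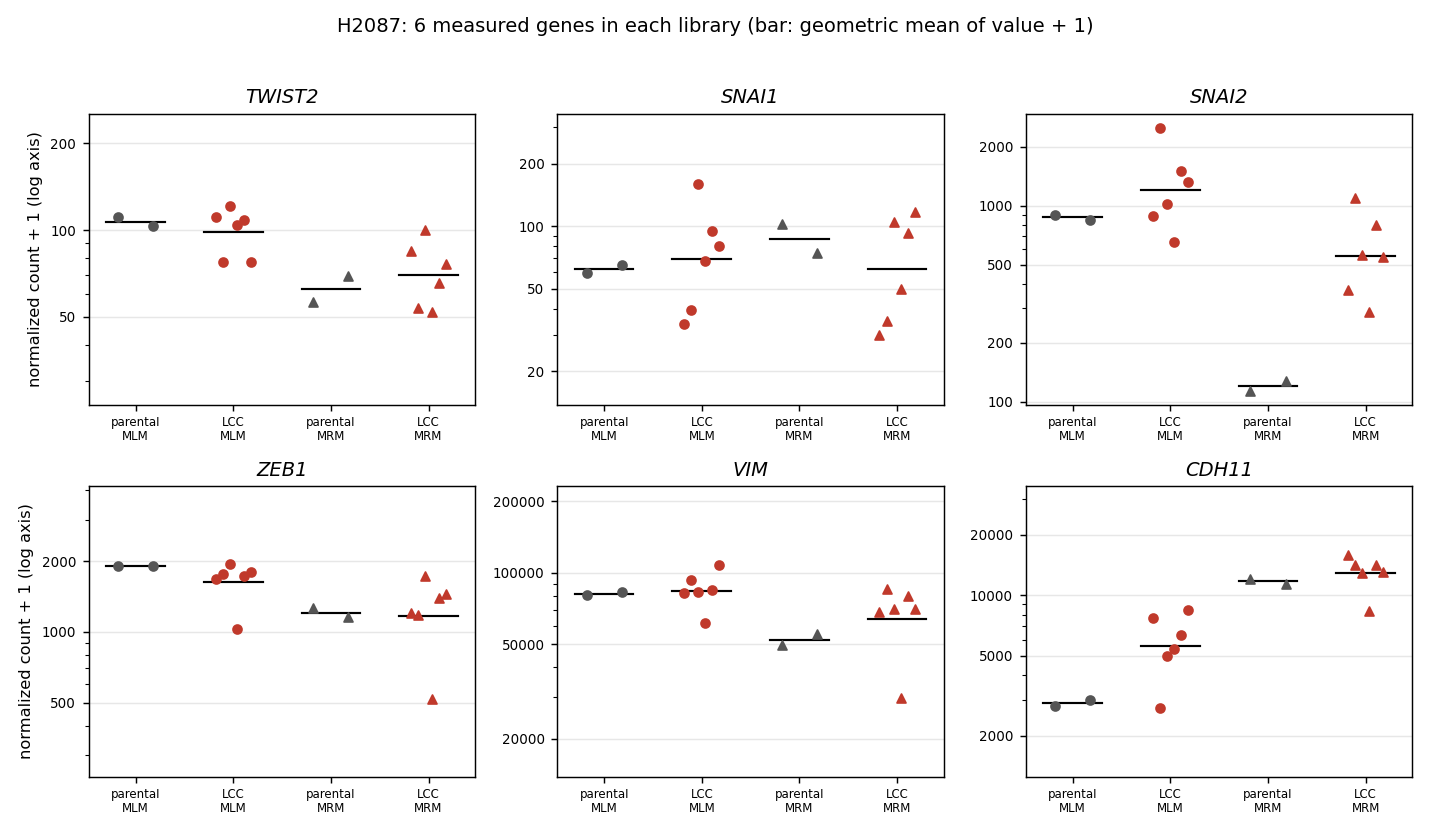
Normalized count plus 1 (log axis) of the 6 measured genes in each H2087 library, grey for the 2 parental libraries and red for the 6 LCC libraries, circles in MLM and triangles in MRM, with a bar at the geometric mean. The parental SNAI2 values in MRM, 112 and 128, lie below those of all 6 derivatives, and CDH11 is lower in MLM than in MRM.

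The 6 H2087 derivatives did not share 1 level of these genes. LCC4 had the lowest ZEB1 and VIM values of the 6 derivatives in both media. Its ZEB1 stood at 1031 in MLM and 518 in MRM, where the next lowest derivatives stood at 1677 and 1174. Its VIM stood at 61247 and 29596, where the next lowest stood at 81928 and 68247. CDH1, the E-cadherin gene that ZEB1 is known to repress, and ESRP1, an epithelial splicing regulator, were highest in the same derivative. CDH1 in LCC4 was 5682 in MLM and 15534 in MRM, beside 19.9 to 1701 and 146 to 2317 in the other derivatives. ESRP1 in LCC4 was 3339 and 5111, beside 10.3 to 792 and 21.7 to 790. LCC3 had the highest ZEB1 of the derivatives in both media (1945 and 1727) and the lowest CDH1 (19.9 and 146) and ESRP1 (10.3 and 21.7). Its VIM, 83460 and 70425, lay amid the other derivatives. LCC6 had the second highest ZEB1 in both media (1805 and 1446.5). Its CDH1 and ESRP1 were second lowest in MLM (80.0 and 26.5) but second highest in MRM (2317 and 790). Each derivative was sequenced once per medium, so these are descriptions of libraries with no test. With this spread, CDH1 gave a group difference of -0.85 ± 1.89 in MLM (adjusted p = 0.814) and of 3.01 ± 1.34 in MRM (adjusted p = 0.162).

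**Figure D4:**
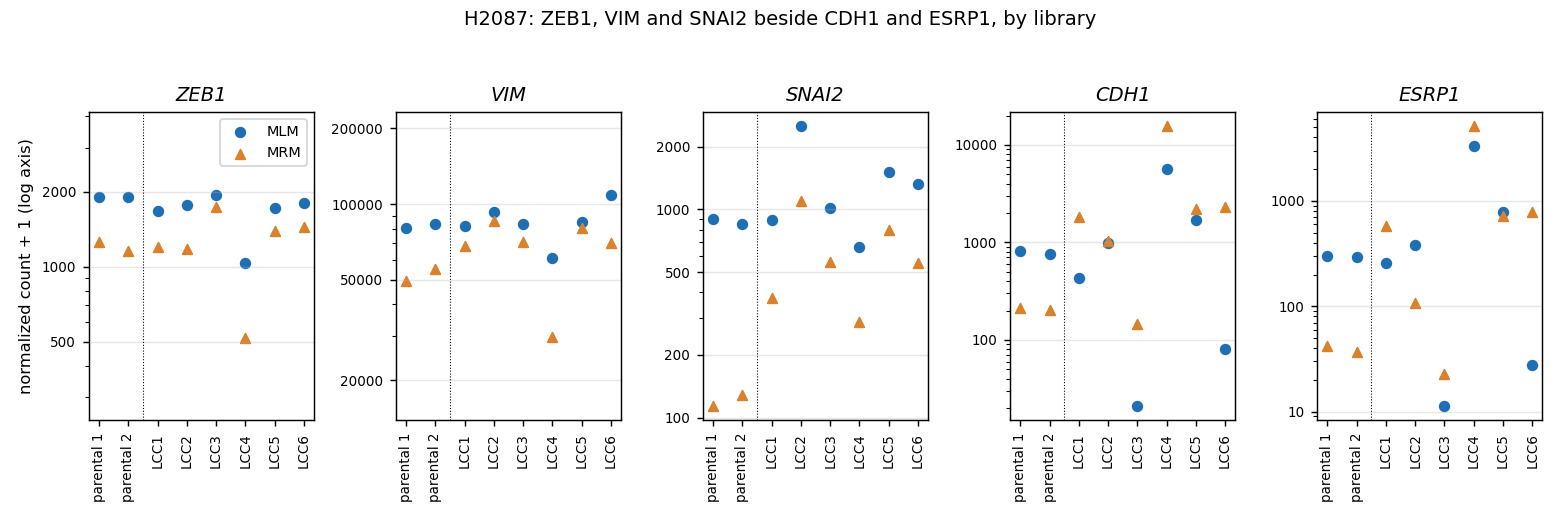
Normalized count plus 1 (log axis) of ZEB1, VIM, SNAI2, CDH1 and ESRP1 in the parental and LCC1 to LCC6 libraries of H2087, blue circles in MLM and orange triangles in MRM. LCC4 is the lowest derivative for ZEB1 and VIM and the highest for CDH1 and ESRP1 in both media, and LCC3 is the highest for ZEB1 and the lowest for CDH1 and ESRP1.

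In parental H2087 cells MLM and MRM differed in most genes of the table. There 72.6% of all genes were called, and 4 of these 6 were called higher in MLM and 1 lower, a share near that background. SNAI2 rose from 112 and 128 in MRM to 901 and 849 in MLM, a difference of 2.86 ± 0.10 (adjusted p = 5.2e-07). CDH11 went from 12033 and 11379 down to 2822 and 3015, a difference of -2.0 ± 0.05 (adjusted p = 2.2e-07). ZEB1 (0.66 ± 0.06, adjusted p = 3.13e-05), VIM (0.64 ± 0.07, adjusted p = 7.86e-05) and TWIST2 (0.77 ± 0.17, adjusted p = 0.00429) rose by smaller amounts. The TWIST2 call was lost without either MLM library (adjusted p = 0.0839 and 0.061). SNAI1 gave -0.49 ± 0.20 (adjusted p = 0.0591). In the same cells CDH1 rose by 1.92 ± 0.08 (adjusted p = 9.39e-07) and ESRP1 by 2.92 ± 0.14 (adjusted p = 1.86e-06). The wider lists were mixed, beside 38.2% of all genes higher and 34.4% lower. Of 21 epithelial junction genes 5 were higher and 14 lower. Of 19 mesenchymal matrix and contractile genes 5 were higher and 12 lower. Of 9 factors that hold the epithelial state 5 were higher and 3 lower. Of 8 other EMT-inducing factors 7 were higher and 0 lower, and of 14 partners and corepressors 10 and 0. Other cadherins, catenins and intermediate filaments had 1, 1 and 2 genes higher and 2, 3 and 4 lower.

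In H2087 LCC cells the same contrast called 1 of 6 genes higher and 1 lower, against 32.7% of all genes. SNAI2 was higher in MLM in 6 of 6 derivatives, by 0.86 to 1.26 on the log2 scale, with a group difference of 1.11 ± 0.36 (adjusted p = 0.0304). CDH11 was lower in MLM in 6 of 6 derivatives, with differences from -2.37 in LCC2 to -0.62 in LCC4, and -1.20 ± 0.24 for the group (adjusted p = 0.0027). Leaving out 1 library at a time lost the SNAI2 call in 6 cases, namely LCC2, LCC5 or LCC6 in MLM and LCC1, LCC4 or LCC6 in MRM (adjusted p up to 0.0683). The libraries of a derivative pair across the media by their label, and with the derivative as a block 5 of these genes and 48.9% of all genes were called: TWIST2 (0.49, adjusted p = 0.0218), ZEB1 (0.48, adjusted p = 0.00358) and VIM (0.40, adjusted p = 0.0309) joined SNAI2 and CDH11. Each of these 3 was higher in MLM in 6 of 6 derivatives. SNAI1 was higher in 5 of 6 and passed neither fit (0.15 ± 0.45, adjusted p = 0.827).

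In HCC1954 parental cells 4 of the 5 genes tested were called between the media, all higher in MLM, against 46.4% of all genes called. VIM rose by 1.78 ± 0.18 (adjusted p = 5.2e-04), from 227 to 256 in MRM to 708 to 1120 in MLM. SNAI2 rose by 1.27 ± 0.07 (adjusted p = 8.62e-05), from 457 to 475 up to 1077 to 1137. CDH11 rose by 0.87 ± 0.20 (adjusted p = 0.012) and TWIST2 by 0.75 ± 0.22 (adjusted p = 0.0261). The CDH11 call was lost without the third MRM library (adjusted p = 0.0539), and the TWIST2 call without MLM library 1 or 2 or MRM library 2 or 3 (adjusted p up to 0.0793). SNAI2, VIM and TWIST2 were thus higher in MLM in the parental cells of both lines, while CDH11 was lower in MLM in H2087 and higher in HCC1954. That contrast between the lines was not tested, since the tables of the lines were scaled separately.

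In HCC1954 LCC cells none of the 6 genes tested was called by limma between the media, against 11.9% of all genes. TWIST1 had an unadjusted p under 0.05, edgeR called 0 and DESeq2 1. TWIST1 was higher in MLM in all 4 libraries by their names, by 0.46 to 1.06, and its difference of 0.80 ± 0.22 was called with the library name as a block (adjusted p = 0.0129, 28.5% of all genes called) but not without it (adjusted p = 0.0535). VIM and SNAI2 did not pass the test, and a difference between the derivatives was not tested. LCC2 VIM was 671 and 604 in MLM against 181 and 178 in MRM, and LCC1 VIM was 192 and 141 against 263 and 2550. LCC2 SNAI2 was 1375 and 1313 in MLM against 539 and 562 in MRM, and LCC1 SNAI2 was 788 and 757 against 821 and 1554, where the library LCC1 2 holds the value of 1554. The pooled differences were -0.24 ± 0.92 for VIM (adjusted p = 0.894) and 0.37 ± 0.36 for SNAI2 (adjusted p = 0.55).

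**Figure D5:**
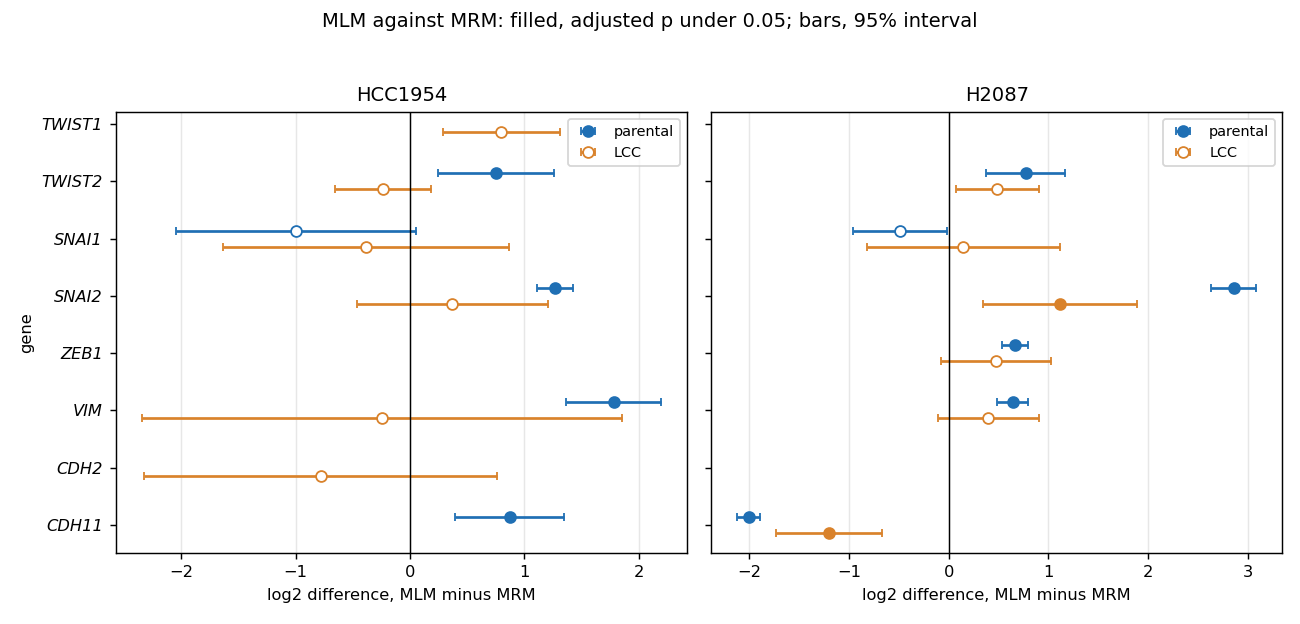
Log2 difference of MLM minus MRM for each gene tested, HCC1954 on the left and H2087 on the right, blue for parental cells and orange for LCC cells, with 95% intervals of limma and filled points for an adjusted p under 0.05. SNAI2 lies right of 0 in parental cells of both lines, and CDH11 lies at -2.0 in H2087 and at 0.87 in HCC1954 parental cells.

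Whether the LCC effect itself differed between the media was tested as an interaction over all libraries of a line. In H2087 it called none of the 6 genes with limma, against 10.7% of all genes. SNAI2 had the only unadjusted p under 0.05 among the 6, edgeR and DESeq2 called 0, and its interaction of -1.75 ± 0.66 had an adjusted p of 0.105. With the library name as a block the same SNAI2 value was called (adjusted p = 7.43e-05), along with 27.3% of all genes. In both lines that block pairs the parental libraries too, which share only a number. In HCC1954 it called none of the 7 genes with limma, against 0.156% of all genes. There TWIST1, TWIST2 and CDH11 had an unadjusted p under 0.05, edgeR called 0 and DESeq2 1. With the library name as a block TWIST1 was called (1.69, adjusted p = 0.0459, against 0.259 without the block), with 0.753% of all genes called. TWIST1 passed the filter only through LCC, and its parental values rest on 2 reads in MLM and 10 in MRM. CDH11 passed only through parental cells. The TWIST1 call is therefore a description and is not support for a medium dependence.

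The wider pathway was described in 8 other lists of genes. A gene was tested when its mean over the libraries of both groups reached 10. A gene that passed only through 1 group had to differ, so the counts of lists are descriptions that support nothing. In HCC1954 the genes of epithelial junctions that EMT factors are known to repress fell or did not pass the test, and none rose. In MLM 10 of 21 fell, and in MRM 14 of 21. Over all genes 17.6% were called higher and 18.9% lower in MLM, and 19.2% higher and 19.3% lower in MRM, and all counts of lists in HCC1954 stand beside these shares. CDH1 fell in MLM (-0.76 ± 0.15, adjusted p = 0.00644) and in MRM (-0.89 ± 0.13, adjusted p = 0.00161). Its lowest value in any HCC1954 library was 10890 normalized counts. MAL2, which sorts proteins to the apical membrane, gave -1.46 ± 0.22 and -1.51 ± 0.29, and RAB25, a GTPase of epithelial recycling, -1.05 ± 0.11 and -1.69 ± 0.17. Among 10 factors that hold the epithelial state, 5 fell and 0 rose in MLM, and 7 fell and 1 rose (OVOL2, 0.43) in MRM. The grainyhead factor GRHL3 gave -1.76 ± 0.48 and -2.66 ± 0.58, and EHF -1.87 ± 0.28 and -1.86 ± 0.29. ESRP1 gave -0.18 ± 0.20 in MLM (adjusted p = 0.515) and fell in MRM (-0.39 ± 0.12, adjusted p = 0.04).

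Of 19 mesenchymal matrix and contractile genes tested in HCC1954, 12 rose in MLM (17.6% of all genes did) and 13 in MRM (19.2% of all genes), and 1 fell in each (COL5A1, -0.59, and FBN1, -0.83, both named after their values were seen). Among the largest differences were those of SPARC, a matrix glycoprotein (6.99 ± 1.32 in MLM and 6.81 ± 0.65 in MRM), the receptor kinase AXL (3.90 ± 0.27 and 5.12 ± 0.66) and smooth muscle actin ACTA2 (4.57 ± 1.12 and 3.96 ± 0.30). Of 8 other EMT-inducing factors 4 rose and 2 fell in each medium. Among those that rose, the homeobox factor GSC rose by 4.24 ± 0.56 and 4.17 ± 0.40, KLF8 by 2.22 ± 0.48 and 2.34 ± 0.40 and SNAI3 by 1.14 and 1.34, while FOXC1 gave -1.30 ± 0.12 and -1.49 ± 0.08 and YBX1 -0.78 and -0.64. Of 14 partners and corepressors, 6 fell and 0 rose in MLM, and 8 fell and 1 rose (CTBP1, 0.32) in MRM. EZH2, the H3K27 methyltransferase that works with SNAI1, gave -1.14 ± 0.20 and -0.90 ± 0.19, and TCF3, a dimer partner of TWIST1, -0.61 ± 0.17 and -0.62 ± 0.12.

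Among 9 other cadherins tested in HCC1954, 3 rose and 3 fell in each medium, where 36.5% and 38.4% of all genes were called in either direction. CDH4 (2.31 ± 0.29 and 1.95 ± 0.23) and CDH16 (3.97 ± 0.96 and 3.62 ± 0.85) rose in both, with CDH15 in MLM (1.14) and CDH5 in MRM (0.92), and CDH1, CDH3 (-0.95 ± 0.19 and -1.02 ± 0.17) and CDH24 (-0.79 and -0.80) fell in both. Catenins, which tie cadherins to the cytoskeleton, fell or were not called: 3 of 6 fell in MLM and 5 of 6 in MRM, among them CTNNB1 (-0.61 ± 0.10 and -0.46 ± 0.11). Of the intermediate filament genes related to VIM, NES (2.82 ± 0.44) and SYNM (0.49 ± 0.15) rose in MLM and SYNM (0.60 ± 0.15) rose in MRM, and no other gene of that list was tested.

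In H2087 fewer of all genes were called between LCC and parental cells (4.94% higher and 8.77% lower in MLM, and 8.76% higher and 5.83% lower in MRM), and the counts of the lists are read beside these shares. The mesenchymal list had 5 higher and 0 lower of 19 in MLM (SPARC 1.39 ± 0.38, CTGF 0.98 ± 0.20, TGFBI 0.93 ± 0.22, AXL 0.85 ± 0.21, TNC 0.78) and 3 higher and 0 lower in MRM (FN1 3.81 ± 0.52, TGFBI 0.84 ± 0.18, TNC 0.76 ± 0.19). The junction list had 1 higher (CLDN4, 0.65 ± 0.13) and 1 lower (PKP2, -1.53 ± 0.42) of 21 in MLM, and 2 higher (MAL2, 3.05 ± 0.38, and CLDN4, 0.82 ± 0.22) and 0 lower in MRM. Among 14 partners and corepressors none was called in MLM, and in MRM ID3, SIN3A, RCOR1 and TCF3 rose (0.45 to 1.04). Among 8 other inducers none was called in MLM, and HMGA2 (1.17 ± 0.16) and FOXQ1 (2.17 ± 0.48) rose in MRM. Of 10 epithelial factors none was called in MLM and KLF5 (0.84 ± 0.22) rose in MRM. CTNNB1 rose in both media (0.56 ± 0.12 and 0.44 ± 0.10), ARVCF fell in MRM (-0.65 ± 0.15), and the neuronal filament gene INA fell in MLM (-6.63 ± 0.46). No other cadherin was called in H2087.

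Genes whose profile over the libraries was most like that of a member are given by Pearson correlation of log2(value + 1), among genes whose mean reached 100. The libraries of a line share derivatives and media, so the values describe these libraries and carry no test. Over the 14 HCC1954 libraries, OSER1 (0.991), NT5C3B (0.988) and YTHDF1 (0.983) were most like TWIST1, and TMEM45A (0.977), PWWP2A (0.973) and TRIB2 (0.970) were most like CDH11. OSR2 (0.932) was most like VIM, TBC1D14 (0.954) most like SNAI2, UXT (0.939) most like SNAI1, TOMM5 (0.971) most like CDH2 and TEX261 (0.801) most like TWIST2. Over the 16 H2087 libraries, BCAR3 (0.975), TIPARP (0.963) and KLF6 (0.949) were most like SNAI2. PHF20 (0.959) was most like CDH11, FOXC2 (0.933), itself on the list of EMT inducers, most like VIM, WSB2 (0.932) most like TWIST2, RAB11FIP2 (0.928) most like ZEB1 and UBQLN1 (0.874) most like SNAI1. Among the members themselves, ZEB1 and VIM followed each other in H2087 (0.866), and in HCC1954 TWIST1 ran with CDH2 (0.873) and against CDH11 (-0.931).

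The 20 nearest tested genes, 10 on either side in the order of the GRCh38.p14 gene table, were set beside each member. Over all genes in HCC1954, 17.6% were called higher in LCC and 18.9% lower in MLM, and 19.2% and 19.3% in MRM. Around SNAI1 in MLM, from DDX27 to BCAS4, 13 of the 20 were called higher in LCC and 0 lower, with a median of 0.71. In MRM, from ZNFX1 to BCAS4, 9 of the 20 were higher and 0 lower, with a median of 0.65. SNAI1 itself stood at 2.43 and 1.82, and the highest of the 20 neighbours at 1.63 and 2.12. Around VIM in HCC1954, 12 were lower and 1 higher in MLM (median -0.68), and 9 were lower and 3 higher in MRM (median -0.37). Around TWIST1 the medians were 0.02 and 0.09, around CDH2 -0.09 and -0.16, and around CDH11 -0.07 and -0.17. Copy number was not measured, and its part in the values at SNAI1 and VIM was not tested. In H2087 the 20 genes around SNAI2 had a median of 0.06 for LCC against parental cells in MRM, with 1 higher and 1 lower. Over all genes 8.76% were higher and 5.83% lower there. For MLM against MRM in parental cells their median was 0.66, with 15 higher and 3 lower, beside 38.2% and 34.4% of all genes. For LCC against parental cells in MLM their median was -0.28, with 0 higher and 8 lower, beside 4.94% and 8.77% of all genes. For the interaction it was -0.53, with 0 higher and 7 lower, beside 4.08% and 6.64% of all genes. SNAI2 itself stood at -1.75 in the interaction.

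Markers of other cells were summed beside these results. The 10 fibroblast markers summed to 788 to 847 in the HCC1954 parental libraries in MRM and to 1079 to 1731 in LCC, and in MLM to 802 to 1037 and 945 to 1307. In that line 2 of the 10 had a mean of at least 10, COL1A1 and FAP, while DCN, LUM, THY1 and POSTN stayed at or below 4.11 in every library. PDGFRB had means of 15.2 and 12.4 in LCC in MLM and MRM, beside 0.432 and 0 in parental cells, and COL1A2 had a mean of 15.6 in LCC in MRM, beside 0.868 in parental cells. In H2087 the sums were 323 to 372 in parental cells and 276 to 697 in LCC in MLM, and 1040 to 1088 and 475 to 959 in MRM. The 9 blood markers summed in HCC1954 to 373 to 1086 in parental cells and 465 to 1344 in LCC in MLM, and to 1324 to 1377 and 619 to 1017 in MRM. Most of that sum was CD68, whose means in MRM were 1345 in parental cells and 747 in LCC. PTPRC had means of 5.95 and 15.0 in MLM and of 5.71 and 13.0 in MRM, and ITGAM of 5.93 and 36.5 in MLM and of 0.549 and 27.2 in MRM. The 7 endothelial markers summed to 725 to 1141 in parental cells and 860 to 1527 in LCC in MLM, and to 902 to 957 and 853 to 1476 in MRM, and among them ROBO4 had means of 0.435 and 44.4 in MLM and of 3.17 and 59.0 in MRM. In H2087 the blood sums were 5792 to 5972 in parental cells and 2484 to 5213 in LCC in MLM, and 7202 to 7239 and 5092 to 8373 in MRM, and PTPRC was at most 3.91. The endothelial sums there were 117 to 119 and 122 to 342 in MLM, and 101.2 to 130 and 109 to 346 in MRM. The part of other cells in the results was not tested.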

How the data were processed

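Total RNA of 30 libraries was analysed: 16 of H2087 and 14 of HCC1954. The labels list 43 samples, of which 12 chromatin samples and H2087 parental library 3 in MLM were not analysed here. The values analysed are normalized counts, a signal deposited with 1 row a gene and 1 column a library. Tools listed for them are Bowtie2 (2.2.4), HTSeq (0.6.1p1) and DESeq2 (1.8.1), with builds hg19 and GRCh37, per the submitters' processing notes. In 100% of the values the deposited signal was a whole number of reads, within 0.01 reads, times 1 factor per library. These factors matched median-of-ratios factors over both media of a line (largest relative difference 6.33e-12 in H2087 and 7.02e-12 in HCC1954), so reads were recovered and media of a line compared.

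Genes with a mean of at least 10 in the libraries fitted were tested with limma 3.58.1 in R 4.3.3 on log2(value + 1), trended and two-sided, with Benjamini-Hochberg adjustment over all genes. The comparisons were tried on simulated data with independent libraries, the same spread setting for every gene and no differences between derivatives. That check therefore does not cover the spread between derivatives in the real groups. Alternatives were edgeR 4.0.16 (quasi-likelihood) and DESeq2 1.42.0 on recovered reads, other scalings, filters and pseudocounts, each derivative alone, a block on library names, and each library left out. The genes and lists were chosen with earlier results of these data known. Named were all 9 genes, CDH1 and ESRP1, up to 4 called genes of largest difference per list and comparison, and the 3 most correlated genes per member; other genes of small counts were named after their values were seen. Some genes that the rule names are not reported here. Of the table symbols, 17996 of 18085 and 23952 of 25369 matched the gene table. Intervals on ratios are exact at 95% and cover counting error only, since reads are not independent molecules.

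Same-named LCC libraries come from the same derivative, and in HCC1954 the name adds a library number within the derivative. Their deviations from the group means correlated at 0.411 to 0.756 in H2087 and at 0.507 to 0.698 in HCC1954. In HCC1954 these values did not single out the number. Against the closest other library, LCC1 1 had 0.581 against 0.497 and LCC1 2 had 0.507 against 0.549. LCC2 1 (0.6698 against 0.6697) and LCC2 2 (0.698 against 0.689) were near ties. The block calls in HCC1954 rest on that number. Parental libraries of the same number correlated at 0.018 to 0.116 and share only a number.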

Additional observations from a re-analysis of the deposited data

Results flagged for a closer look

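Over 26 groups of 4 to 10 libraries, 4 libraries stood apart from the rest of their group by Dixon's test at its 95% critical value, which chance alone gives in about 1 in 20 groups. In H2087 LCC cells in MLM, derivative LCC4 had a ZEB1 value of 1031, while the other 5 derivatives stood between 1677 and 1945. In H2087 LCC cells in MRM, the same derivative had a VIM value of 29596, while the others stood between 68247 and 85419. In HCC1954 LCC cells in MRM, the first LCC1 library had a SNAI1 value of 394.5, while the other 3 libraries stood between 132 and 175. In the same group the second LCC1 library had a VIM value of 2550, while the others stood between 178 and 263.

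CDH11 moved in opposite directions between the media in the parental cells of the lines, with a log2 difference of MLM minus MRM of -2.0 in H2087, where both MLM libraries lay below both MRM libraries, and of 0.87 in HCC1954, where all 3 MLM libraries lay above all 3 MRM libraries. The difference between the lines was not tested.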

How the results depend on the processing

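Apart from leaving out a library, counts of called genes stayed within 1.5 times the main count in 88 cases and moved further in 10. DESeq2 called 1 gene where limma called 0 for H2087 LCC against parental cells in MLM, HCC1954 LCC cells between media, and the HCC1954 interaction. Scaling to library totals called 1 gene (0 in the main analysis) for HCC1954 LCC cells between media, and a mean filter of 50 called 1 for LCC2 against LCC1 in MRM (main 2). LCC2 as the only derivative called 7 of 7 in MRM (main 4), where that fit called 74.7% of all genes (main 38.4%). With the replicate block 5 genes were called for H2087 LCC cells between media. It called 1 each for the H2087 interaction, the HCC1954 interaction and HCC1954 LCC cells between media. There the block called 48.9%, 27.3%, 0.753% and 28.5% of all genes, in that order. In the interactions it paired the parental libraries by number too. The block called SNAI1 in H2087 parental cells too (adjusted p = 0.0416) and changed no other call.

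Leaving out 1 library at a time gave 0 to 1 called genes for H2087 LCC against parental cells in MLM, 0 to 2 in MRM, 0 to 1 for the H2087 interaction, 1 to 3 for H2087 LCC cells between media, 2 to 5 for HCC1954 LCC against parental cells in MLM, 0 to 4 for LCC2 against LCC1 in MRM, 0 to 1 for HCC1954 LCC cells between media and 2 to 5 for HCC1954 parental cells between media. Values of genes that were not called changed sign in some of these fits. SNAI1 ranged from -0.087 to 0.36 and VIM from -0.029 to 0.14 for H2087 LCC in MLM, ZEB1 from -0.16 to 0.19 in MRM, and SNAI1 from -0.093 to 0.36 for H2087 LCC cells between media. In HCC1954 SNAI2 ranged from -0.27 to 0.014 for LCC in MLM, VIM from -0.26 to 1.02 in MRM and from -0.61 to 0.67 for LCC cells between media, and SNAI1 from -1.22 to 0.35 and TWIST2 from -0.14 to 0.031 for LCC2 against LCC1 in MRM.

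Other sign changes were ZEB1 for H2087 LCC in MRM with edgeR (0.043) and DESeq2 (0.043), VIM for H2087 LCC in MLM (-0.019) and TWIST2 for LCC2 against LCC1 in MRM (0.085) with library totals, and, with LCC2 alone, SNAI2 in MLM (0.27) and VIM in MRM (-0.44). The cause was not tested. Over all genes DESeq2 called 2725 for H2087 LCC in MLM against 1711 with limma, 2753 against 1822 in MRM, 3099 against 1837 for HCC1954 LCC cells between media, and 308 against 24 for the HCC1954 interaction, where edgeR called 12. Library totals moved the median of all genes from 0.0148 to 0.157 in LCC2 against LCC1 in MRM, the widest such shift. A leave-out that keeps 1 library of a group assumes that it varies like the others.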
